A study of Homo sapiens with 32 samples.

Results

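Acute myeloid leukaemia (AML) cell lines stop at different points of myeloid differentiation, and the comparison described here sets lines of granulocytic type against lines of monocytic type. The granulocytic side, myeloblastic with maturation or promyelocytic, held HL-60, its subline PLB-985, NB-4, PL-21 and KASUMI-1. The monocytic side held THP-1, SHI-1, SKM-1, MV4-11, MOLM-13 and NOMO-1. The 11 lines were chosen from 32 by name and by the lineage commonly given for them, and the rule uses no expression value. HL-60 and PLB-985 were averaged into 1 unit, since they descend from 1 patient's cells, which left 4 granulocytic against 6 monocytic units.

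The series holds 1 expression array of each of 32 established human AML cell lines, all untreated, and was made for work on sensitivity to PIM kinase inhibitors, which was not used here. All 5 granulocytic lines, THP-1, SKM-1 and NOMO-1 grew in RPMI 1640 and SHI-1 in IMDM, while the medium of MV4-11 and MOLM-13 was not given. Each line is a single established culture, so the lines stand in for separate leukaemias and no line has a replicate of its own. As background, 5 of the 6 monocytic lines (THP-1, SHI-1, MV4-11, MOLM-13 and NOMO-1, not SKM-1) are known for a fusion of KMT2A, the gene of a histone methyltransferase. None of the 5 granulocytic lines is, NB-4 being known for PML-RARA and KASUMI-1 for RUNX1-RUNX1T1, so that monocytic type and KMT2A fusion cannot be told apart except through SKM-1.

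Granulocytes and monocytes arise from a common progenitor. In normal marrow the granulocytic path, driven by C/EBP factors, fills granules with myeloperoxidase, elastase and related proteases at the promyelocyte stage. The monocytic path, which needs high PU.1 activity, brings up the receptor for M-CSF, integrins, Fc and scavenger receptors and MHC class II.

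Of 12852 genes tested, 9 were higher in the monocytic lines at an adjusted p under 0.05 (0.0700% of the genes tested) and limma called 0 higher in the granulocytic lines (0%), where 181 had an unadjusted p under 0.05 (1.41%). The 9 were CPNE8, FAM20C, GAS2L3, KCNQ1, ATP10A, CAPN2, CD70, MTX3 and TRPM4, by 8.62-fold to 25.4-fold on the log2(signal + 16) scale. They encode 2 ion channels, a phospholipid flippase, a calcium-dependent phospholipid-binding protein, a protease and a surface ligand of the TNF family. The others encode proteins of the secretory path, cytoskeleton and mitochondria. Of the 9, only CD70 stood in any of the 32 gene lists examined. None of the granule proteins, monocyte receptors or HLA genes passed.

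Promoters of 3 of the 9 genes are printed here, from the sequences searched for the motifs of the lineage factors named above. Both genes with a C/EBP motif match are among the 3, which therefore do not stand for all promoters searched. The sequences cover the 250 bases before the annotated start in RefSeq's GRCh38.p14 table, 5′ to 3′ on the gene's own strand. Capitals mark a match to TTGCNNAA, the core of a C/EBP motif, on either strand.
CPNE8: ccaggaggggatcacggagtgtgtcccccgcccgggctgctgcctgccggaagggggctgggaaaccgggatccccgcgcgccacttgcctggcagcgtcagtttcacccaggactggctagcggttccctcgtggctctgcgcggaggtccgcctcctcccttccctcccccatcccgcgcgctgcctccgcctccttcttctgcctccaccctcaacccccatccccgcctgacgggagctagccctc
GAS2L3: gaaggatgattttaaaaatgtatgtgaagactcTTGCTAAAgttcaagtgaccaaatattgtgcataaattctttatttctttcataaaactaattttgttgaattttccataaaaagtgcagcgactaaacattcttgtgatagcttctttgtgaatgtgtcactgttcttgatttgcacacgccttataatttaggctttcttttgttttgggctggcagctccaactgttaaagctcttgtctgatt
CAPN2: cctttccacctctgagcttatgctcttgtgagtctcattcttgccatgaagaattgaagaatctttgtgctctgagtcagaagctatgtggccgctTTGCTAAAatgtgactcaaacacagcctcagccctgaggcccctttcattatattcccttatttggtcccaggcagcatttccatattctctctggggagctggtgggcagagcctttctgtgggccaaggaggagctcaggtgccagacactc

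The CPNE8 promoter lies at chr12:38905592-38905841 on the minus strand and holds no match. The GAS2L3 promoter lies at chr12:100593368-100593617 on the plus strand, with its match 217 bases before the start. The CAPN2 promoter lies at chr1:223701347-223701596 on the plus strand, with its match 154 bases before the start, and a further annotated start of CAPN2, with its promoter at chr1:223712289-223712538, has none. Of the 9 genes, 7 had an entry in the promoter table. TTGCNNAA stood before 2 of these 7 (28.6%), against 8.89% of 10395 tested genes with a promoter and 9.05% of all 35116 promoters. CAPN2 counts among the 2 through only 1 of its starts, whereas the share of all promoters counts each promoter singly. The motif stood before 11.1% of 171 genes with an unadjusted p under 0.01 and higher in the monocytic lines, and before 22.7% of 22 such genes higher in the granulocytic lines. GAGGAAGT, the core of the PU.1 motif, stood before 0 of the 7, against 3.16% of the tested genes and 2.17% of all promoters, and before 5.26% of the 171 and 4.55% of the 22. A match is a string of letters and not a shown binding site.

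Array quality was examined before the levels. The median signal was 68.7 to 100.6 on 10 of the 11 arrays and 198.4 on NOMO-1, where 5.99% of probe sets lay below a signal of 16, against 18.99% to 24.46% on the other 10 arrays. The correlation with NOMO-1 over the tested genes was low, with a median r of 0.656 for the other monocytic units and 0.639 for the granulocytic ones. Without NOMO-1, the median r was 0.846 within the granulocytic side (6 pairs), 0.834 within the monocytic side (10 pairs) and 0.828 between the sides (20 pairs). Lines of opposite sides were thus nearly as alike as lines of the same side. These correlations are across genes, which are not independent, and share each array's quality.

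The GAPDH 3′/5′ ratio compares control probe sets at either end of the GAPDH transcript and rises with RNA degradation. High values occurred on both sides. It was 7.08 in HL-60, 6.84 in NB-4, 0.933 in PLB-985, 0.902 in PL-21 and 0.887 in KASUMI-1. On the monocytic side it was 2.42 in THP-1, 2.61 in MOLM-13, 2.84 in NOMO-1, 0.929 in SKM-1, 1.14 in MV4-11 and 1.24 in SHI-1. Each side therefore held arrays above and below 2. Above 2, however, the granulocytic arrays read 6.84 to 7.08 and the monocytic ones 2.42 to 2.84. Among high-ratio arrays, the side and the size of the ratio therefore cannot be told apart. The mean log2 ratio was 0.95 ± 1.41 (SD, n = 4) in the granulocytic and 0.76 ± 0.70 (SD, n = 6) in the monocytic units, a difference of -0.19 with p = 0.876 in a two-sided exact permutation test. Without NOMO-1 the difference was -0.34 (exact permutation p = 0.762).

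The lineage labels were then set against defining markers, as log2(signal + 16), a scale with a floor of 4 on which the median over every probe set and array was 6.73. MPO, the myeloperoxidase of primary granules, read 15.69 in HL-60, 14.71 in PLB-985, 15.09 in NB-4, 14.71 in PL-21 and 14.79 in KASUMI-1. In the monocytic lines MPO read 8.08 in THP-1, 15.09 in SHI-1, 14.53 in SKM-1, 8.05 in MV4-11, 9.66 in MOLM-13 and 15.25 in NOMO-1. MPO was thus high in every granulocytic line and in 3 of the 6 monocytic lines as well, and the difference of -3.17 ± 1.47 did not pass (limma adjusted p = 0.799). ELANE, neutrophil elastase, read 15.31 in HL-60, 10.34 in PLB-985, 4.67 in NB-4, 14.63 in PL-21 and 14.36 in KASUMI-1, against 11.83 to 15.27 in the 6 monocytic lines. The elastase transcript was therefore near the floor in NB-4, a line of the granulocytic side, and high throughout the monocytic side.

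PRTN3, AZU1 and CTSG, the other granule proteases, read between 8.42 and 15.37 on all 11 arrays and overlapped between the sides. CEBPE, the factor of terminal granulopoiesis, read 9.72 to 11.76 in the granulocytic lines and 6.69 to 10.82 in the monocytic lines. CSF3R, the G-CSF receptor, read 9.62 to 11.99 against 9.98 to 12.87. Of the monocyte markers, CD14 read 4.26 to 7.54, CD163 at most 6.61 and FCGR1A at most 7.61 on the 11 arrays, and these 3 were too low on most of them to be tested. LYZ, lysozyme, overlapped with 10.35 to 14.71 against 9.14 to 15.02.

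Among the monocyte markers tested, CSF1R and ITGAM had the smallest p, and ITGAM is given with its list. CSF1R, the M-CSF receptor, read 6.91 in HL-60, 6.16 in PLB-985, 8.11 in NB-4, 6.87 in PL-21 and 8.51 in KASUMI-1, against 10.60 in THP-1, 7.46 in SHI-1, 10.47 in SKM-1, 10.09 in MV4-11, 9.22 in MOLM-13 and 9.51 in NOMO-1. SHI-1 alone lay within the granulocytic range, and the difference of 2.05 ± 0.63 did not pass (limma adjusted p = 0.476). Granule markers thus overlapped between the sides. So did the tested monocyte markers of this set, CSF1R, ITGAM, LYZ, CD86, S100A8 and S100A9. CD86 differed by 1.28 (limma adjusted p = 0.82). The names granulocytic and monocytic are used here for the lines as chosen. Among markers of other lineages, CD3D, a chain of the T cell receptor complex, read 11.60 in NB-4 and at most 8.61 elsewhere. KLF1, PF4, CD79A, CD3E and COL1A1 read between 4.82 and 9.36 on all 11 arrays, and KRT18 between 5.86 and 9.71. ITGA2B, an integrin chain of platelets, read 5.54 to 10.35, with 10.35 in NOMO-1, 9.82 in THP-1 and 9.47 in SHI-1. In bulk RNA, fewer cells of a type and less RNA per cell cannot be told apart.

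**Figure D1:**
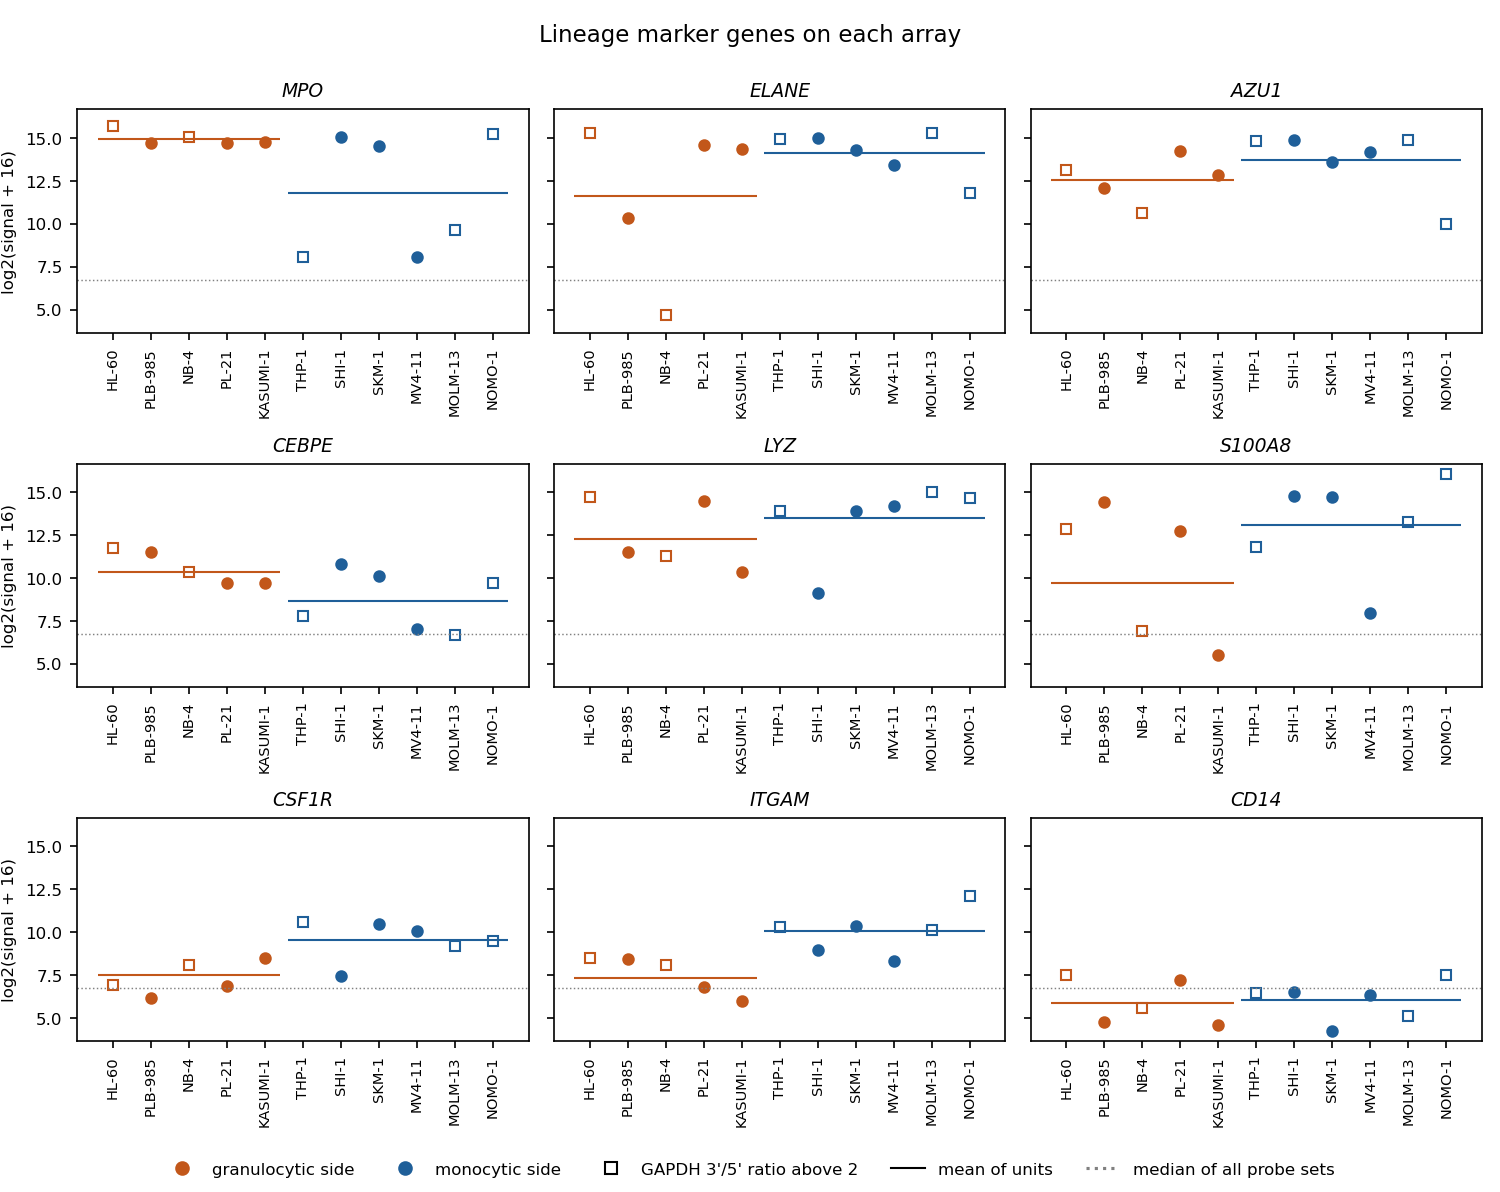
Level of lineage markers on each of the 11 arrays, as log2(signal + 16), with granulocytic and monocytic lines in separate colours. Horizontal lines mark the mean of the units, open squares a GAPDH 3′/5′ ratio above 2, and the dotted line the median over every probe set, 6.73. MPO is above 14 in the granulocytic lines but also in SHI-1, SKM-1 and NOMO-1, and CSF1R is higher in the monocytic lines except SHI-1.

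The 9 genes that passed were not markers in the usual sense. CPNE8, a copine of the calcium-dependent phospholipid-binding family, had the smallest p. It read 4.11 in HL-60, 7.86 in PLB-985, 4.65 in NB-4, 4.94 in PL-21 and 4.47 in KASUMI-1. In the monocytic lines CPNE8 read 10.97 in THP-1, 9.29 in SHI-1, 8.49 in SKM-1, 9.47 in MV4-11, 9.90 in MOLM-13 and 9.96 in NOMO-1. The highest granulocytic array, PLB-985, was below the lowest monocytic one, SKM-1, and HL-60 and its subline were far apart. CPNE8 rose by 4.67 ± 0.51 (log2, SE), or 25.4-fold, with a limma adjusted p of 0.00905. As most granulocytic lines read near the floor of 4, the size depends on the added constant, being 5.99 with 1 and 3.35 with 64 in place of 16. CPNE8 passed with HL-60 alone in place of the averaged unit. With PLB-985 alone in its place, CPNE8, CAPN2 and TRPM4 did not pass.

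FAM20C encodes the Golgi kinase that phosphorylates secreted proteins. It read 5.90 in HL-60, 6.91 in PLB-985, 6.45 in NB-4, 4.53 in PL-21 and 6.22 in KASUMI-1, against 9.95 in THP-1, 9.11 in SHI-1, 9.53 in SKM-1, 10.04 in MV4-11, 10.22 in MOLM-13 and 10.77 in NOMO-1. Its monocytic levels lay within a narrow band, and it rose by 4.04 ± 0.47, or 16.4-fold (limma adjusted p = 0.00953). The other FAM20C probe sets differed by -0.29, 0.33 and 1.02, so the rise rests on the probe set with the highest mean.

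GAS2L3, which links actin filaments and microtubules, read 7.16 in HL-60, 5.14 in PLB-985, 4.71 in NB-4, 4.22 in PL-21 and 6.25 in KASUMI-1. It read 10.02 in THP-1, 10.39 in SHI-1, 8.34 in SKM-1, 10.14 in MV4-11, 9.83 in MOLM-13 and 9.90 in NOMO-1. Apart from SKM-1 the monocytic lines were close together, and GAS2L3 rose by 4.43 ± 0.53, or 21.6-fold (limma adjusted p = 0.00953).

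Both ion channels were near the floor throughout the granulocytic side. KCNQ1, the pore-forming subunit of a voltage-gated potassium channel, read 5.22 in HL-60, 4.90 in PLB-985, 4.63 in NB-4, 4.59 in PL-21 and 4.59 in KASUMI-1. It read 7.92 in THP-1, 8.10 in SHI-1, 9.33 in SKM-1, 8.58 in MV4-11, 7.72 in MOLM-13 and 9.85 in NOMO-1, a rise of 3.87 ± 0.49 (limma adjusted p = 0.0112). The other KCNQ1 probe set, with means of 5.45 in the granulocytic and 6.24 in the monocytic units, differed by 0.79. TRPM4, a calcium-activated channel for monovalent cations, read 4.36 to 5.02 in the 5 granulocytic lines. It read 8.90 in THP-1, 9.22 in SHI-1, 6.38 in SKM-1, 10.65 in MV4-11, 10.50 in MOLM-13 and 8.81 in NOMO-1. TRPM4 rose by 4.55 ± 0.72 (limma adjusted p = 0.0465), and SKM-1, the monocytic line without a KMT2A fusion, stood below the other 5. On the log2(signal + 16) scale these were 14.6-fold and 23.4-fold, values that understate the change of genes near the floor. Over the 9 genes the log2 difference was 3.16 to 6.06 with 1 added and 2.55 to 3.98 with 64 added.

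ATP10A, a flippase that moves phospholipids across the plasma membrane, read 7.19 in HL-60, 4.97 in PLB-985, 5.94 in NB-4, 5.18 in PL-21 and 5.99 in KASUMI-1. It read 8.44 in THP-1, 9.27 in SHI-1, 9.24 in SKM-1, 10.98 in MV4-11, 8.96 in MOLM-13 and 10.46 in NOMO-1, a rise of 3.76 ± 0.51 or 13.6-fold (limma adjusted p = 0.0205). HL-60 came nearest to the monocytic lines, of which THP-1 was lowest, and other ATP10A probe sets differed by 0.27 and 0.29. CAPN2, the catalytic subunit of the calcium-dependent protease m-calpain, read 9.36 in HL-60, 6.44 in PLB-985, 9.57 in NB-4, 10.18 in PL-21 and 8.94 in KASUMI-1, against 12.49 in THP-1, 12.49 in SHI-1, 12.84 in SKM-1, 12.51 in MV4-11, 11.31 in MOLM-13 and 11.91 in NOMO-1. CAPN2 rose by 3.11 ± 0.45, or 8.62-fold (limma adjusted p = 0.0271), and its other probe set differed by 1.00.

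CD70, the ligand of CD27 in the TNF family, read 6.63 in HL-60, 7.21 in PLB-985, 9.79 in NB-4, 7.05 in PL-21 and 6.26 in KASUMI-1. It read 11.96 in THP-1, 13.03 in SHI-1, 12.26 in SKM-1, 10.77 in MV4-11, 11.82 in MOLM-13 and 11.49 in NOMO-1. NB-4 came nearest to the monocytic lines, and CD70 rose by 4.38 ± 0.64, or 20.9-fold (limma adjusted p = 0.0271). MTX3, a metaxin of the mitochondrial outer membrane, read 4.58 in HL-60, 5.45 in PLB-985, 4.44 in NB-4, 8.70 in PL-21 and 5.48 in KASUMI-1. The 6 monocytic lines read 10.32 to 10.97, so all of them were alike in MTX3 while PL-21 stood apart from the other granulocytic lines. MTX3 rose by 4.60 ± 0.68, or 24.3-fold (limma adjusted p = 0.0273).

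**Figure D2:**
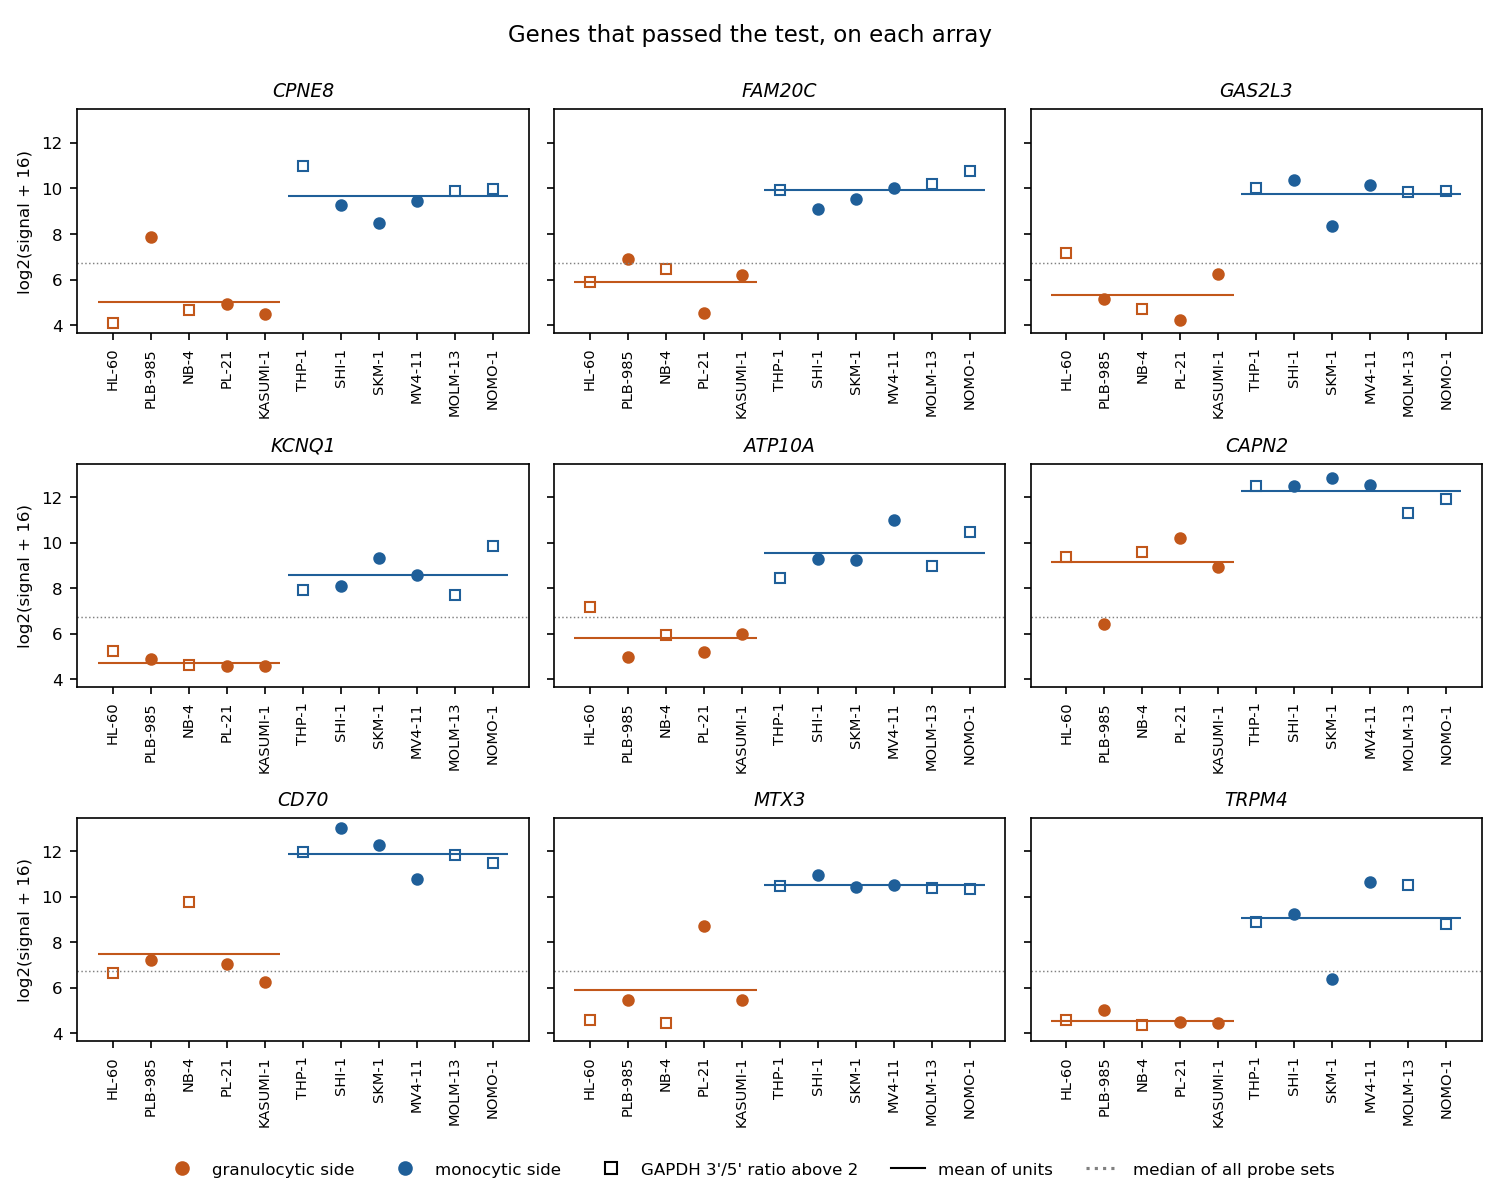
Levels of the 9 genes that passed, on each array, as log2(signal + 16). Lines mark the mean of the units, open squares mark arrays with a GAPDH 3′/5′ ratio above 2, and the dotted line is the median of all probe sets, 6.73. In each panel the lowest monocytic line is above the highest granulocytic line.

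Without NOMO-1, 7 genes rose (0.0545%), of which 5 were among the 9. CAPN2, CD70, MTX3 and TRPM4 had adjusted p of 0.067, 0.075, 0.0844 and 0.117 there, with differences of 3.18, 4.46, 4.64 and 4.60. CX3CR1, the fractalkine receptor of monocytes, was among the 7, at 4.26 (limma adjusted p = 0.0429), and also passed with array weights, which gave NOMO-1 the lowest weight. It had 3.83 ± 0.70 and an adjusted p of 0.13 with NOMO-1, where it read 8.39 against 10.03 to 12.15 in the other monocytic lines.

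The count also moved with single lines. It was 4 without the HL-60 and PLB-985 unit, 5 without THP-1, 15 without MOLM-13 and 15 without SKM-1. CPNE8, FAM20C, GAS2L3 and KCNQ1 passed in each of the 10 fits that left out 1 unit. Arrays of low GAPDH ratio alone (KASUMI-1, PLB-985 and PL-21 against SKM-1, MV4-11 and SHI-1) gave limma 0 genes past the threshold, with 444 at an unadjusted p under 0.05. Arrays of high ratio alone (HL-60 and NB-4 against MOLM-13, THP-1 and NOMO-1) gave 10, of which 2 were among the 9. The ratio itself was higher on the granulocytic arrays of that set. The 9 genes differed by a median of 4.09 (3.33 to 5.18) on the low-ratio arrays and 3.98 (2.44 to 5.89) on the high-ratio arrays. The genes were chosen by their p on these same arrays, which contributes to this likeness. The correlation of the low-ratio and high-ratio differences across all 12852 genes was 0.346.

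The 19 remaining AML lines and the KG-1 and KG-1A unit were not all low in these genes. Of these 20 units, 16 lay nearer to the monocytic than to the granulocytic mean of CPNE8, with a maximum of 11.26 in OCI-AML3. The count was 14 for GAS2L3, 12 for CAPN2, 12 for MTX3, 9 for KCNQ1, 9 for ATP10A, 8 for FAM20C, 7 for TRPM4 and 6 for CD70. By this measure CD70 was the gene that the fewest of the other units shared, and CPNE8 the one that most did. Counted instead as other units above the lowest monocytic unit, MTX3 had the fewest with 3. CD70 and FAM20C had 5 each there, and CPNE8 had 15. ML-2, a further line known for a KMT2A fusion, lay nearer to the monocytic mean for CPNE8 (10.30), FAM20C (10.19), GAS2L3 (9.78), CD70 (11.20) and TRPM4 (7.90). It lay nearer to the granulocytic mean for KCNQ1 (4.62), ATP10A (5.73), CAPN2 (10.19) and MTX3 (5.34).

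Placing each unit by genes that passed without it gave a mixed picture. HL-60/PLB-985 lay nearer to its own side for 4 of 4 such genes, THP-1 for 5 of 5 and MV4-11 for 6 of 7. MOLM-13 did so for 9 of 15, SKM-1 for 8 of 15, SHI-1 for 5 of 9 and PL-21 for 5 of 11. KASUMI-1 lay nearer to its own side for 6 of 9, NB-4 for 4 of 6 and NOMO-1 for 5 of 7. Over the larger set of genes with an unadjusted p under 0.01 without the unit, a limit added after the data were seen, THP-1 lay nearer to its own side for 86.1%. PL-21 did so for 39.5%, SHI-1 for 44.2% and SKM-1 for 47.4%, so these lines lay nearer to the opposite side's mean for more than they did to their own.

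At an unadjusted p under 0.05 there were 632 genes higher in the monocytic lines (4.92%) and 181 higher in the granulocytic lines (1.41%). Without NOMO-1 there were 643 (5.00%) and 269 (2.09%). Without the filter on level there were 804 and 203 of 19775 genes. This lean to the monocytic side depended on the scaling. Centring each array on its median moved the median difference of all tested genes from 0.06 to -0.20 and the split to 410 against 313. Levels of the 2 sides did not overlap for 128 genes with the monocytic units higher (0.996%) and 64 with the granulocytic units higher (0.498%).

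**Figure D3:**
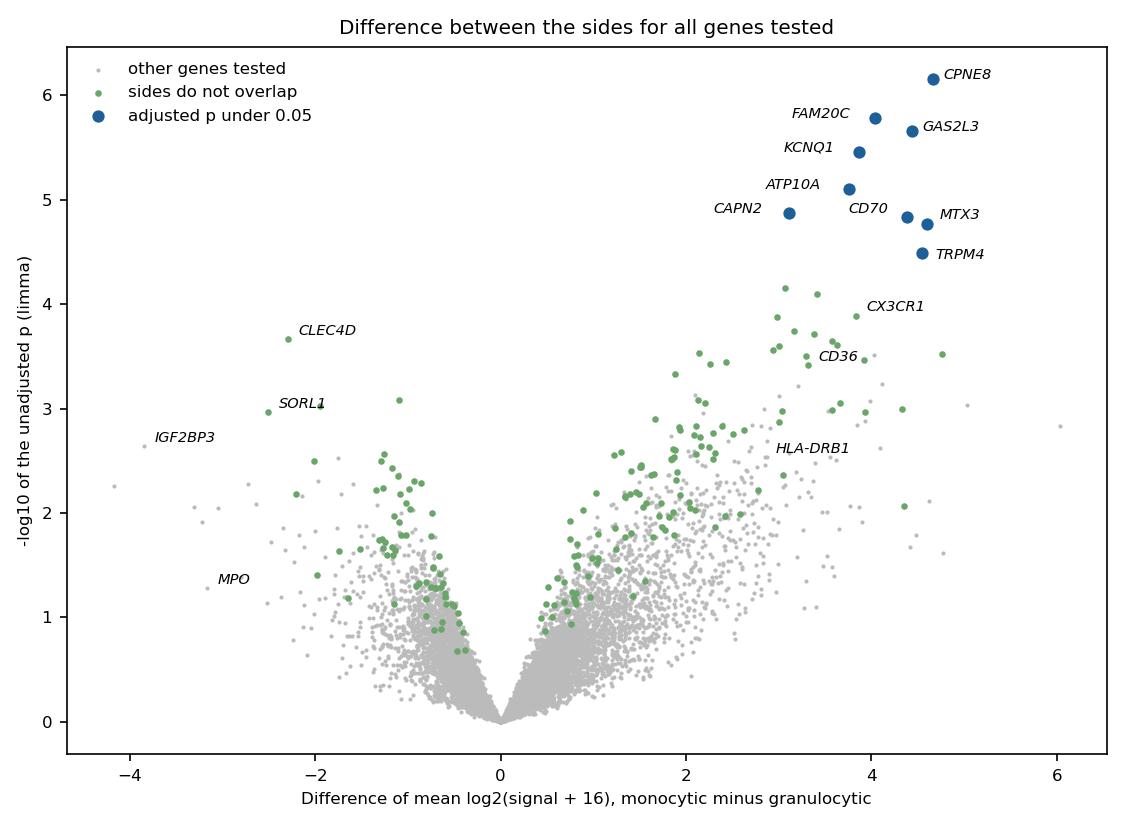
Each tested gene's log2 difference, monocytic minus granulocytic, against the -log10 of its unadjusted p from limma. Blue points passed and green points mark other genes whose sides do not overlap. The 9 genes that passed all lie at the right, and CLEC4D, with the smallest p among genes higher in the granulocytic lines, does not pass.

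Next to the 9 genes stood ZFP3, a zinc finger protein, at 3.07 ± 0.52 (limma adjusted p = 0.0905) and PTP4A3, a phosphatase of the PRL family, at 3.42 ± 0.59 (adjusted p = 0.0947). Of the genes higher in the granulocytic lines, the 12 of smallest p are described although none passed. CLEC4D, a C-type lectin receptor of myeloid cells, read 7.34 in HL-60, 7.42 in PLB-985, 7.41 in NB-4, 8.67 in PL-21 and 8.30 in KASUMI-1, against 5.10 to 6.36 in the monocytic lines. It did not overlap and differed by -2.29 ± 0.44 (limma adjusted p = 0.167). SORL1, a sorting receptor, read 13.29 in HL-60, 13.12 in PLB-985, 12.10 in NB-4, 12.53 in PL-21 and 13.62 in KASUMI-1. The monocytic lines read 11.69 in THP-1, 11.17 in SHI-1, 8.70 in SKM-1, 8.97 in MV4-11, 10.76 in MOLM-13 and 10.84 in NOMO-1, a difference of -2.51 ± 0.59 (limma adjusted p = 0.294).

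IGF2BP3, an RNA-binding protein of fetal tissue and leukaemia, had the widest gap of the 12 at -3.84 ± 1.00 (limma adjusted p = 0.408). It read 9.74 to 11.82 in the granulocytic lines and 5.31 to 9.18 in 5 monocytic lines, but 10.80 in SHI-1. The other members of the 12 were ZNF655 at -1.10, ATP5MF at -1.95, ERAP2, which trims peptides for MHC class I, at -1.25, SPRY1, a feedback inhibitor of receptor tyrosine kinase signalling, at -1.76 and ZFHX3 at -2.01. FKBP4, a co-chaperone of HSP90, differed by -1.29, MED21, a Mediator subunit, by -1.17, ACVR1B, an activin receptor, by -1.09 and SPPL3, an intramembrane protease, by -1.11. Their adjusted p lay between 0.294 and 0.455.

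Gene lists of myeloid biology were described by counts beside the same over all genes, whose median difference was 0.06, with 7106 above and 5746 below 0. The lists share members, so their counts are not separate results. ITGAM, ITGAX, CX3CR1, CSF1R, CD36 and KLF4 of the monocyte list recur in the integrin, cytokine receptor, scavenger receptor or transcription factor lists. MEF2C stands among both the transcription factors and the KMT2A fusion targets. In the list of genes that define monocytes and macrophages, 0 of 18 tested members passed and 6 had an unadjusted p under 0.05 with the monocytic lines higher, where 4.92% of all genes did. The 6 were CX3CR1, CD36, ITGAM, KLF4, CSF1R and ITGAX. The list's median was 1.52 and 16 of 18 were above 0. Without NOMO-1 the median was 1.41. It was 1.01 on arrays of low and 2.43 on arrays of high GAPDH ratio, and the part of RNA quality in this was not tested. With array weights, CX3CR1 (4.19, limma adjusted p = 0.00595) and CD36 (3.74, adjusted p = 0.0121) passed. ITGAM, the alpha chain of the integrin Mac-1, read 8.48 in HL-60, 8.46 in PLB-985, 8.12 in NB-4, 6.84 in PL-21 and 5.98 in KASUMI-1, against 10.31 in THP-1, 8.99 in SHI-1, 10.39 in SKM-1, 8.33 in MV4-11, 10.13 in MOLM-13 and 12.12 in NOMO-1. Only MV4-11 overlapped the granulocytic lines, and the difference was 2.70 ± 0.71 (limma adjusted p = 0.408). The other ITGAM probe set differed by 0.74.

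CD36, a scavenger receptor for lipids, read 4.76 to 6.08 in the granulocytic and 6.76 to 10.09 in the monocytic lines, with SKM-1 and NOMO-1 the lowest of the latter. Its difference of 3.32 ± 0.69 had an adjusted p of 0.177. KLF4, a factor of monocytic differentiation, differed by 2.63 and ITGAX, the integrin chain CD11c, by 2.63. Among pattern recognition and scavenger receptors, 5 of 20 members had an unadjusted p under 0.05 with the monocytic lines higher, and 1, CLEC4D, the other way. Of all genes, 4.92% and 1.41% had such a p in these directions. The list's median was 0.59. Fc and LILR receptors had a median of 0.87 with 18 of 20 above 0. That p was reached by 1 of these 20, monocytic higher, where 4.92% of all genes reached it. LILRB1, an inhibitory receptor for MHC class I, differed by 1.88 and was 4.50 in SHI-1 but 9.54 in MV4-11. On the low-ratio arrays alone this list's median was 0.07.

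The granule lists differed from each other. Azurophil granule genes had a median of -0.23 over 11 members, 0.21 without NOMO-1, and 0 of 11 had an unadjusted p under 0.05. Of all genes, 4.92% had such a p with the monocytic and 1.41% with the granulocytic lines higher. Specific and tertiary granule genes had a median of 0.75 over 10 members, 9 of them above 0 and 1, TCN1, at that p, and CHI3L1, a secreted chitinase-like protein, differed by 2.32. Neutrophil surface genes and enzymes had a median of 0.20 over 8 members, of which CXCR2, a receptor for interleukin 8, differed by 1.91. The 5 tested eosinophil genes had a median of 0.01. CLC, the Charcot-Leyden crystal protein, read 14.17 in HL-60 and 7.57 in its subline PLB-985, and 14.34 in SKM-1. The line and its subline were thus far apart in this gene.

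S100A8 and S100A9, the calprotectin subunits, differed by 3.41 and 3.27 and overlapped between the sides. S100A8 read 5.53 in KASUMI-1 and 6.93 in NB-4 but 14.44 in PLB-985, and 7.98 in MV4-11 but 16.09 in NOMO-1. Levels of both genes thus varied widely within each side. The NADPH oxidase list had a median of 0.30 over 7 members, the lysosome and cathepsin list 0.16 over 19, the complement and secreted list 0.29 over 17 and the chemokine and cytokine list 0.28 over 21. TGFBI, a matrix protein secreted by macrophages, had the largest difference of these, 4.35 ± 1.39 (limma adjusted p = 0.491). It read 4.41 to 5.14 in the granulocytic lines, 12.68 in THP-1, 8.18 in SHI-1, 9.72 in MV4-11 and 12.52 in NOMO-1. TGFBI was only slightly higher than that in SKM-1 (5.42) and MOLM-13 (5.24), so 4 of the 6 monocytic lines carried the difference. CTSH, cathepsin H, differed by 2.17 and was 11.89 in NB-4, CCL23, a chemokine, by 2.42, and NCF1, an oxidase subunit, by 1.97.

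MHC class II genes stood higher in the monocytic lines without passing. Of 10 tested members, 0 passed, 6 had an unadjusted p under 0.05 and 8 lay above 0, with a median of 1.83. All 6 were higher in the monocytic lines, as were 4.92% of all genes at that p. High levels were not particular to the monocytic side. Of the 20 other units, 17 lay nearer to the monocytic than to the granulocytic mean of HLA-DPA1. The count was 16 for HLA-DMA, 15 for HLA-DPB1, 13 for HLA-DRB1, 13 for CD74 and 9 for HLA-DQB1. HLA-DRB1, a beta chain of HLA-DR, read 7.48 in HL-60, 7.16 in PLB-985, 6.96 in NB-4, 7.56 in PL-21 and 8.49 in KASUMI-1. It read 11.98 in THP-1, 7.68 in SHI-1, 9.53 in SKM-1, 10.36 in MV4-11, 10.86 in MOLM-13 and 12.23 in NOMO-1. SHI-1 alone fell within the granulocytic range, and the difference was 2.86 ± 0.77 (limma adjusted p = 0.408). HLA genes are near-identical copies, so signal can be shared among them.

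NOMO-1 read highest for HLA-DPA1 (11.56) and HLA-DPB1 (11.22), and without it the list's median was 1.40 with 4 members at that p. The 4 were higher in the monocytic lines, as were 5.00% of all genes in that fit. The list's median was 0.69 on the low-ratio arrays and 3.12 on the high-ratio arrays. The part of RNA quality in this was not tested. CD74, the invariant chain, read 9.90 in HL-60, 4.50 in PLB-985, 4.76 in NB-4, 10.52 in PL-21 and 10.64 in KASUMI-1, against 8.85 to 11.86 in the monocytic lines. MHC class I genes had a median of 0.48 over 14 members, of which HLA-F differed by 1.76. Interferon-induced genes had a median of 0.40 over 27 members, of which MX1, an antiviral GTPase, differed by 1.86.

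**Figure D4:**
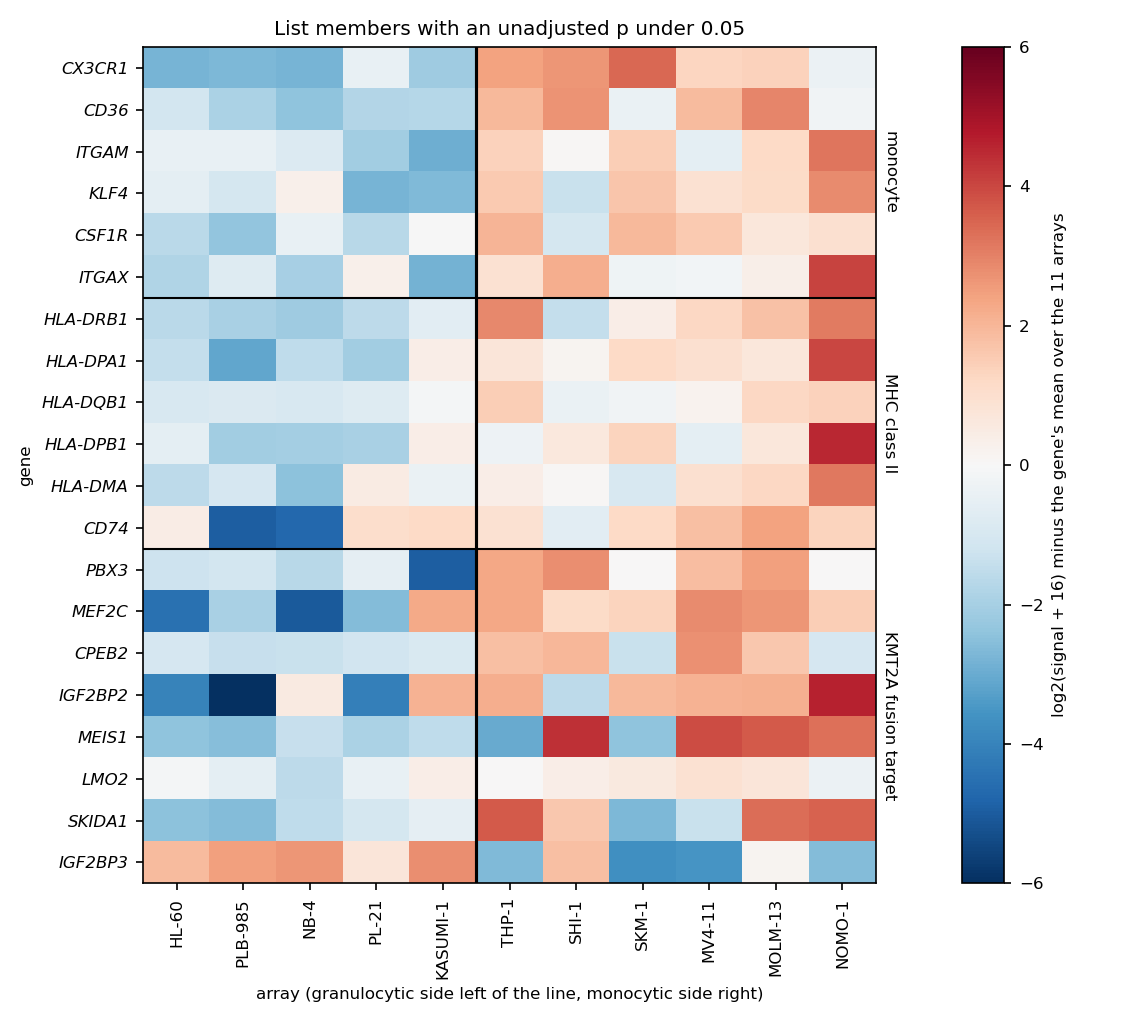
Members of the monocyte, MHC class II and KMT2A fusion target lists with an unadjusted p under 0.05. Colour gives the log2(signal + 16) level on each array minus the gene's mean over the 11 arrays, with granulocytic arrays left of the line and monocytic arrays right of it. ITGAM, HLA-DRB1 and PBX3 are higher in most monocytic lines, MEIS1 is low in THP-1 (4.47) and SKM-1 (5.06), and none of the genes passed the test.

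Genes known as targets of KMT2A fusions were examined because the fusion goes with the monocytic side. Of 22 tested members, 7 had an unadjusted p under 0.05 with the monocytic lines higher, 1 (IGF2BP3) the other way, and 0 passed. Of all genes, 4.92% and 1.41% had such a p in these directions. The list's median was 0.52. PBX3, a homeobox cofactor, read 9.03 in HL-60, 9.20 in PLB-985, 8.62 in NB-4, 9.73 in PL-21 and 5.33 in KASUMI-1, against 12.61 in THP-1, 13.05 in SHI-1, 10.32 in SKM-1, 12.13 in MV4-11, 12.73 in MOLM-13 and 10.32 in NOMO-1. It did not overlap, with a difference of 3.66 ± 0.84 (limma adjusted p = 0.294).

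MEIS1, the partner of HOXA9 in leukaemia, read 4.94 to 6.08 in the granulocytic lines. It read 11.86 in SHI-1, 11.38 in MV4-11, 11.19 in MOLM-13 and 10.79 in NOMO-1, but 4.47 in THP-1 and 5.06 in SKM-1. MEIS1 thus split the monocytic lines, with THP-1 low although it is known for a KMT2A fusion. SKM-1 was also low in SKIDA1 (4.29) and CPEB2 (8.42). SKIDA1 was 10.67 in THP-1 and 5.62 in MV4-11, and CPEB2 was 8.72 in NOMO-1, so no gene of these 3 was high in every fusion line. MEF2C, a factor of monocytic and stem cell programs, differed by 4.09 ± 1.07 (limma adjusted p = 0.408), with KASUMI-1 at 11.90 among the monocytic lines and the other granulocytic lines at 4.55 to 7.68. IGF2BP2 differed by 3.52 and LMO2 by 0.89, but by 0.80 and -0.31 on their other probe sets.

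Of the list of HOXA genes and cofactors, PBX3 and MEIS1 were the 2 members tested, so it says nothing on the HOXA genes. All 7 tested HOXB genes lay above 0 with a median of 1.12, and HOXB6 differed by 2.33 with 9.34 in SHI-1. A gene was tested where at least 3 units exceeded the overall median, which monocytic units alone can supply. HOXB6 did so only in SHI-1, MV4-11 (7.84) and NOMO-1 (7.75), and read at most 5.75 in the granulocytic lines. HOXB2, HOXB8 and HOXB13 were too low to be tested. The shared direction of the tested HOXB genes is therefore not independent of the filter on level. Of 48 myeloid transcription factors, 4 had an unadjusted p under 0.05 with the monocytic lines higher and 1 the other way, with a median of 0.23. The shares of all genes, for this and the next lists, were 4.92% and 1.41%. Cytokine receptors had 5 and 2 of 32 at that p, and a median of 0.62. Leukocyte integrins had 3 of 15, and a median of 0.80. Surface antigens discussed as AML targets had 4 of 18, CD70 among them, and a median of 0.28. Stem and progenitor genes had a median of 0.53 over 11, and SOCS2, a feedback inhibitor of cytokine signalling, differed by 2.38.

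Lists of proliferation and metabolism leaned slightly the other way or not at all. Cell cycle genes had a median of -0.17 with 24 of 30 below 0, though -0.02 without NOMO-1. CCND2, cyclin D2, differed by -3.23 ± 1.10 (limma adjusted p = 0.554), with 12.08 to 13.85 in the granulocytic lines, 6.47 in SKM-1, 7.33 in NOMO-1 and 9.39 in THP-1. MTOR and translation control genes had a median of -0.29 with 16 of 20 below 0. PIM1, the kinase that the series' inhibitors act on, differed by 1.52 and was highest in MOLM-13 (12.70) and MV4-11 (12.36). BCL2 family genes had a median of 0.00 over 14, with BIK at 1.60. Hypoxia and glycolysis genes had 0.15 over 25, with HK3, a myeloid hexokinase, at 3.20 and 13.11 in NOMO-1. Genes associated with RUNX1-RUNX1T1 or PML-RARA had -0.01 over 12, with CCNA1, cyclin A1, at 2.83.

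Markers of other lineages gave medians of 0.27 over 9 erythroid, 0.46 over 7 megakaryocyte, 0.27 over 6 B cell, 0.15 over 4 T and NK cell and 0.26 over 9 stromal and epithelial genes. None of their members passed. KLF1, an erythroid factor, differed by -1.10, ITGA2B of platelets by 1.38, BLNK, a B cell adaptor also found in macrophages, by 2.40, NKG7 of cytotoxic cells by 1.34 and PECAM1, shared by endothelium and monocytes, by 2.78. With arrays centred on their medians, the medians of 7 lists crossed from above to below 0. These were the eosinophil, erythroid, T and NK cell, neutrophil surface, lysosome, hypoxia and myeloid transcription factor lists, and the T and NK cell list was also just below 0, at -0.01, after quantile normalization. Without NOMO-1 the median was -0.07 for the erythroid, -0.20 for the T and NK cell and -0.14 for the stromal and epithelial list.

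**Figure D5:**
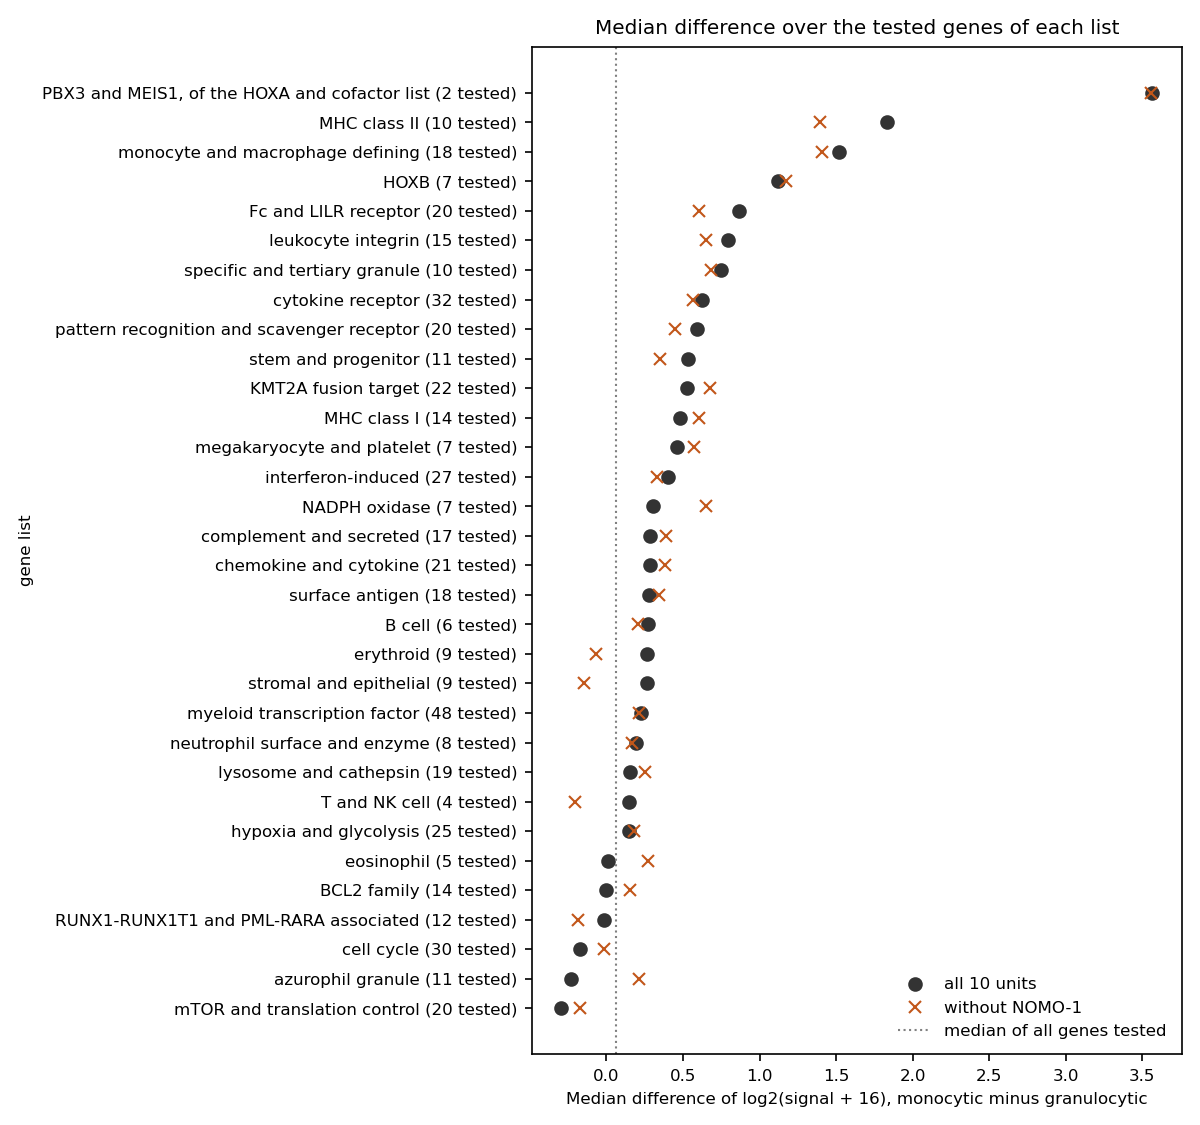
Median log2 difference, monocytic minus granulocytic, of each gene list with all 10 units and without NOMO-1, beside the median of all tested genes, 0.06. PBX3 and MEIS1 (3.57), MHC class II (1.83) and the monocyte list (1.52) lie farthest above 0, while cell cycle (-0.17), azurophil granule (-0.23) and mTOR genes (-0.29) lie below it.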

How the data were processed

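The deposited intensities are linear values that the authors obtained from Affymetrix Expression Console, named in the submitters' processing notes; its version and summarization method are not given in the sources used here. The trimmed mean was about 500.1 on each array. Each level is log2(signal + 16), without rescaling. The array has 54675 probe sets. The platform's name table gave a single symbol for 41091 of them and several for 1801, left 11721 unlisted, and 62 were controls; 54 single symbols found no RefSeq entry. The named sets covered 19775 genes, each read from its probe set of highest mean over 32 arrays. A gene was tested where at least 3 of the 10 units exceeded 6.73, the overall median, which 12852 did. Every column of the deposited table was matched to a sample.

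Log2 levels were fitted with limma 3.58.1 in R 4.3.3 (lmFit, eBayes with a mean-variance trend), two-sided, with Benjamini and Hochberg's adjustment over all tested genes and 0.05 as threshold. Errors after ± are standard errors unless named SD. Each line has 1 array, so p-values reflect how far lines differ from each other, and precision is limited by how many there are. The script was tested on simulated data. The rule for the lines uses lineage and no measured value, but the comparison, lists and tests were proposed with earlier results of these data known. Genes were named by rule: 12 in each direction (the smallest p where fewer passed), the member of largest difference of each list with no passing gene, lineage markers, and some list members chosen after their values were seen. Promoters were searched in the 250 bases before the start, leaving out the transcribed bases. Alternatives are given in the closing section. Sums and ratios used pandas 2.3.3 and SciPy 1.17.1, and plots matplotlib 3.10.9.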

Additional observations from a re-analysis of the deposited data

Results flagged for a closer look

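Gaps were examined in 172 groups of units (each side, for each gene named, and the array medians), and in 17 of them the highest or lowest unit stood apart from the rest by Dixon's 95% limit; chance gives about 5% of groups. On the granulocytic side, PL-21 was lowest for FAM20C (4.53), ATP10A (5.18) and BIK (5.36) and highest for FCGR1A (5.89). HL-60/PLB-985 was highest for KCNQ1 (5.06), CLC (10.87) and HK3 (8.52), and KASUMI-1 was highest for FKBP4 (13.27).

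On the monocytic side, NOMO-1 was highest for HLA-DPA1 (11.56), HLA-DPB1 (11.22) and ACVR1B (10.23), lowest for AZU1 (9.97), and had the highest array median signal (198.4). SKM-1 was lowest for GAS2L3 (8.34) and KRT18 (6.39). SHI-1 was lowest for LYZ (9.14) and highest for MTX3 (10.97). The gaps were not uniform in size: that of CLC was 5.11 and that of KCNQ1 0.44 on the log2 scale.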

How the results depend on the processing

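Of 28 alternative settings, 16 gave a count of genes within 1.5 times of the 9. The count was 5 with median centring, 5 with the mean of all probe sets of a gene (4 of them among the 9), 3 without NOMO-1 and with the GAPDH ratio as a covariate, and 29 with array weights, where NOMO-1 had the lowest weight, 0.172. It was 4 with lines grown in RPMI 1640 alone, none of them among the 9. In limma it was 0 with the spread taken from all 30 units (747 at an unadjusted p under 0.05), 0 on arrays of low GAPDH ratio (444) and 0 with the second probe set of each gene (405 of 6452 tested). Leaving out 1 unit at a time gave 4 to 15. The causes were not tested.

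CPNE8 passed in 23 of 28 settings and TRPM4 in 7 of 27. Signs turned in 4 of 1887 values of named genes: FAM20C (-0.29) and LMO2 (-0.31) with the second probe set, and CLC with array weights (-0.50) and on arrays of high GAPDH ratio (-2.39). Of 894 list medians, 11 moved beyond the spread between units. The GAPDH difference of -0.19 was -0.34 without NOMO-1 and -0.16 with ACTB.

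No paired analysis was possible because replicate numbers here only name the lines. A fit with both HL-60 and PLB-985 arrays and the line as a random block was not run, since 1 block of 2 arrays gave no correlation. Low signal limits genes near the floor of 4.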
